A study of Mus musculus with 2 samples.

Results

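Dazl, Ddx4, Mael, Asz1, Mov10l1, Sycp1, Sycp3, Stag3, Hormad1 and Tex101 are germline genes, used in the making of eggs and sperm and kept silent in somatic tissue. They were examined as a fixed list of 10 among the 21000 protein-coding genes of the mouse annotation, to see where the transcription factor NRF1 was found at their promoters in skeletal muscle. None of the 10 carried an NRF1 peak at its promoter, where 13.4% of coding genes did, so a count of 0 in 10 genes is by itself near the background. At the same promoters, 5 genes, against 12.1% of coding genes, held a copy of the NRF1 recognition sequence with at most 1 mismatch. All of these copies lay within 200 bp of the start of transcription. The background share of 12.1% differed with the sequence composition of promoters, as given below.

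Germline genes of this kind are a textbook case of silencing by DNA methylation. Many have promoters rich in CpG, the dinucleotide at which mouse DNA is methylated, and these promoters gain methylation in the embryo and keep it in somatic cells, while most other CpG-rich promoters stay free of it. NRF1, nuclear respiratory factor 1, binds as a dimer to a palindrome that itself contains CpG, and its binding is known to be sensitive to methylation of that sequence. Methylation was not measured here, and its part in the values below was not tested.

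The study asked how NRF1 shares target genes with the glucocorticoid receptor and the demethylase LSD1 in muscle. NRF1 was mapped by chromatin immunoprecipitation and sequencing (ChIP-seq), in which an antibody pulls down a protein with the DNA it occupies, and occupied sites appear as peaks. The samples form 1 group, skeletal muscle of wild-type mice with the NRF1 antibody, and no age or treatment is given for it in the labels. The labels give the NRF1 antibody for both of its 2 libraries, but in the reporting summary that came with the study the second is input DNA, and the 1 list of peaks carries the title of the first.

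The list held 3226 peaks with a median fold enrichment of 10.7 over the control, as the authors' peak caller gave it. The study counts a different number of sites in its text, so this is perhaps not the list counted there. With 1 list there are no replicates, so values carry no replicate error, and depth is unknown from a list of peaks. A site without a peak is therefore a site that did not pass the authors' threshold, which is not the same as a site without NRF1. A list of NRF1 peaks also does not allow the muscle label to be checked against marker genes. Every stretch of 50 bases between 250 bp upstream and 50 bp downstream of the start occurred once on the assembled chromosomes in 10 of the 10 germline genes, so a read of 50 bases without mismatches could be placed uniquely there.

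The sequences that carry the result are the 5 germline promoters with the NRF1 motif. The motif searched was the palindrome GCGCATGCGC, which reads the same on both strands, and copies with at most 1 mismatch were counted. Each promoter is shown on the strand of its gene and runs from 170 bases before the start of transcription to 19 past it, from the RefSeq promoter sequences of GRCm38.p6 (mm10), with the motif copies in capitals. They are Hormad1 (plus strand, chr3:95559507-95559696), Stag3 (plus strand, chr5:138280339-138280528), Mov10l1 (plus strand, chr15:88982824-88983013), Asz1 (minus strand, chr6:18109042-18109231) and Dazl (minus strand, chr17:50293601-50293790).
Hormad1: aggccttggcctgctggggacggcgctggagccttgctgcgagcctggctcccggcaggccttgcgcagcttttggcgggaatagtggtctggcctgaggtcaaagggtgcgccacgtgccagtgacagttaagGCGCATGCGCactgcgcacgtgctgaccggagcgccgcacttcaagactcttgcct
Stag3: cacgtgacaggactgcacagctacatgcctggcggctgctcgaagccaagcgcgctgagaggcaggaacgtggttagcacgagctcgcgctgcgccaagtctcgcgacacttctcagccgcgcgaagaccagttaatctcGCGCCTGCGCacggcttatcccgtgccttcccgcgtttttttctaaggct
Mov10l1: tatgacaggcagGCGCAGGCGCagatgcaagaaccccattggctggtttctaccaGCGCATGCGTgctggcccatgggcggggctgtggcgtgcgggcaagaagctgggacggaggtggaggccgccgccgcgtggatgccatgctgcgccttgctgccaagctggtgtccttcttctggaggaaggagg
Asz1: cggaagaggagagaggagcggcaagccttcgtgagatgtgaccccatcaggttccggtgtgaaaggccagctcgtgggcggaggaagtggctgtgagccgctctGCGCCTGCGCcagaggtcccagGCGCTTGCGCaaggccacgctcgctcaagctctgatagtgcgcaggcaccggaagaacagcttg
Dazl: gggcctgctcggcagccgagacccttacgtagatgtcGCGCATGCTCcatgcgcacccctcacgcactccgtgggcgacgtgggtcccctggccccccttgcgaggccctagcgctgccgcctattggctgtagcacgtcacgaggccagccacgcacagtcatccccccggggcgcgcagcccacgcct

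A promoter was taken as 1000 bp before to 100 bp after any known RefSeq start, and a promoter peak had its summit there. Among the 21000 coding genes, 2808 had a promoter peak. The count for the germline genes was 0 of 10. It was also 0 when a wider promoter or one of 500 bp either side of a start was taken, when any overlap of peak and promoter was counted, and when predicted transcripts were added. The nearest summit lay 24682 bp from a known start of any of the 10, so the changes of promoter and overlap could not raise the count. No peak lay within the body of any of the 10 genes.

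The motif was far from rare at these promoters. A copy with at most 1 mismatch was present in a promoter of 2548 coding genes, or 12.1%, against 5 of the 10 germline genes. The 5 were Hormad1, Stag3, Mov10l1, Asz1 and Dazl. An exact copy was present in 368 coding genes, or 1.75%, and in 1 germline gene, Hormad1. The 7 copies in the germline promoters all lay between 250 bp before and 50 bp after a start, which is called near a start below.

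Across coding genes a motif copy mostly went with a peak. Of the 2548 genes with a copy in a promoter, 1920 had a promoter peak, or 75.4%, whereas 888 of the 18452 genes without a copy had one, or 4.81%. With the copy near a start the share was 81.5% (1656 of 2032), with an exact copy near a start 90.5% (276 of 305), and with at least 2 copies near a start 93.3% (333 of 357). The germline genes with a copy, all of them near a start, stood at 0 of 5 beside the 81.5%. Only Hormad1 belongs to the group with an exact copy, and only Asz1 and Mov10l1 to that with at least 2 copies.

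**Figure D1:**
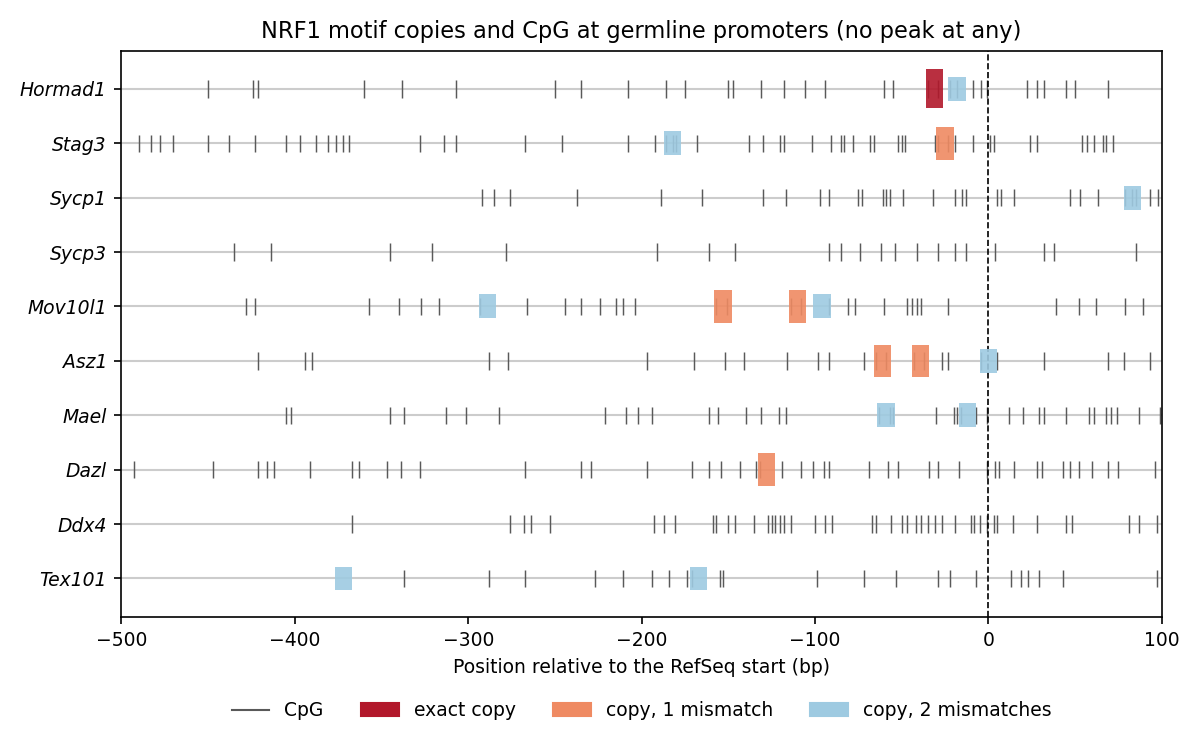
Positions of CpG (grey ticks) and of NRF1 motif copies (red, exact; orange, 1 mismatch; blue, 2 mismatches) in the 10 germline promoters, along the gene's strand in bp from the RefSeq start (dashed line). Copies with at most 1 mismatch are seen in 5 promoters, between 158 bp and 30 bp before the start, and no promoter had a peak.

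CpG content divided the background, and the germline genes were placed in it. A promoter was called CpG-rich when a 500 bp window between 700 bp upstream and 200 bp downstream of the start had an observed to expected CpG ratio over 0.75 and a GC content over 55%. It was called CpG-poor when no such window passed a ratio of 0.48, and intermediate otherwise. Of the germline genes, 6 were CpG-rich (Dazl, Ddx4, Mael, Sycp1, Stag3 and Hormad1), 4 were intermediate (Asz1, Mov10l1, Sycp3 and Tex101) and none was CpG-poor. Among coding genes these classes held 41.3%, 23.7% and 35.0%. Promoter peaks were found at 27.0% of CpG-rich, 9.06% of intermediate and 0.163% of CpG-poor coding genes. A motif copy was present in 1954 of 8670 CpG-rich and 492 of 4977 intermediate coding genes. It was present in Dazl, Stag3 and Hormad1 of the 6 CpG-rich germline genes, and in Asz1 and Mov10l1 of the 4 intermediate ones. At a looser cut, a CpG ratio of at least 0.6 and GC of at least 50%, all 10 germline genes were CpG-rich. The classes below follow the stricter cut.

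Within the CpG-rich and the intermediate class, the genes with a motif copy still mostly had a peak. In the CpG-rich class it was 82.5% of genes with a copy in a promoter, 87.4% with a copy near a start and 93.7% with an exact copy near a start. In the intermediate class the same shares were 60.6%, 66.2% and 79.7%. The 60.6% became 38.9% at the looser cut. In the CpG-poor class, which held none of the germline genes, 8.82% of genes with a copy in a promoter had a peak. Hormad1 belongs to the group of 239 CpG-rich genes with an exact copy near a start, of which 224 had a peak. Dazl and Stag3, each with a single copy of 1 mismatch near a start of a CpG-rich promoter, belong to a group of 1116 genes, of which 942, or 84.4%, had a peak. Asz1 and Mov10l1, each with 2 inexact copies at an intermediate promoter, belong to a group of 33 genes, of which 25, or 75.8%, had a peak. For the germline genes without a copy the background was low. It was 13.5% (958 of 7083) for the CpG-rich Ddx4, Mael and Sycp1, and 4.13% (189 of 4581) for the intermediate Sycp3 and Tex101, so the lack of a peak at these 5 genes is what most genes of their group showed.

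**Figure D2:**
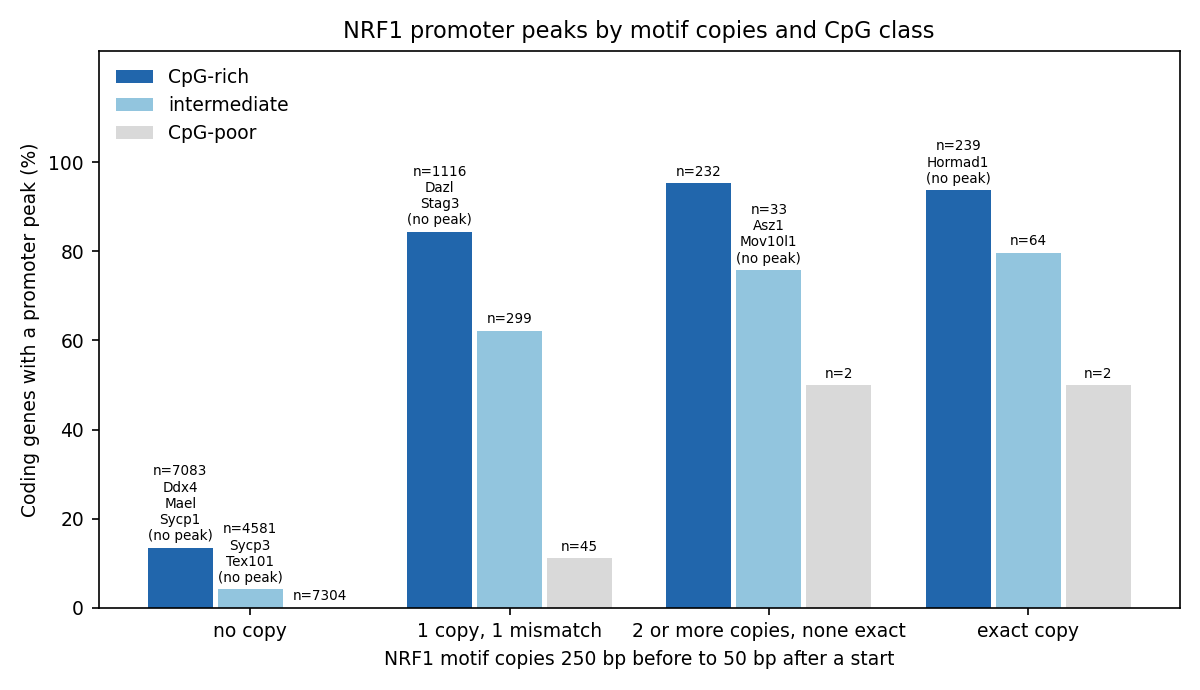
Percent of coding genes with an NRF1 promoter peak, by the motif copies from 250 bp before to 50 bp after a start and by CpG class (bars, with the number of genes n). The germline genes are named over the group they belong to, and each was without a peak, also in the groups where 84.4%, 75.8% and 93.7% of genes had one.

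The synaptonemal complex and the chromosome axis, the protein scaffold that aligns homologous chromosomes in meiosis, were represented by Hormad1, Stag3, Sycp1 and Sycp3. Hormad1 encodes a HORMA domain protein of the unsynapsed axis. Its start lay on the plus strand of chromosome 3 at position 95559677, with a second RefSeq start 2 bp further on. Its exact copy, chr3:95559641-95559650, began 36 bp before the first start. The 401 bp around the start held 27 CpG, a CpG ratio of 0.791, which was at percentile 62.7 of coding genes. The nearest peak summit was 260113 bp away, inside a peak of 10.7-fold enrichment whose nearest start is that of Rprd2.

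Stag3 encodes a cohesin subunit of meiotic cells and had the highest CpG ratio of the 10 genes, 0.983, at percentile 89.1. Its 35 CpG in 401 bp included the 2 in the motif copy chr5:138280479-138280488, which began 30 bp before the start. This copy differs from the palindrome by A5C, where the base of the palindrome comes first and positions run from 1 at the 5′ end on the gene's strand. Copies of this type, which read GCGCAGGCGC on the other strand, were near a start of 707 coding genes, and 613 of these, or 86.7%, had a promoter peak. Gpc2, a glypican gene, starts 572 bp before Stag3 on the opposite strand, and had no promoter peak either. The promoters of the pair overlap, and the 1 motif copy in the Gpc2 promoter is the Stag3 copy. The nearest summit to the Stag3 start was 24682 bp away, the shortest distance among the 10 genes, and its closest start was that of Lamtor4.

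Sycp1 encodes the transverse filament protein and Sycp3 a protein of the lateral element of the complex. The CpG ratio was 0.911 at Sycp1, with 36 CpG, and 0.650 at Sycp3, with 23 CpG. Neither had a copy with at most 1 mismatch. Sycp1 had a single copy with 2 mismatches, which began 78 bp after the start, and Sycp3 had none. Their nearest summits were 59575 bp and 80509 bp away.

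The piRNA pathway, which uses small RNAs to silence transposons in germ cells, was represented by Mov10l1, Asz1 and Mael. Mov10l1 encodes a helicase that acts on piRNA precursors. Its copies began 158 bp (T6G) and 115 bp (C10T) before the start, at chr15:88982836-88982845 and chr15:88982879-88982888. The first is again of the GCGCAGGCGC type. The second reads ACGCATGCGC on the other strand, a type found near a start of 208 coding genes, of which 175, or 84.1%, had a peak. The CpG ratio of Mov10l1, 0.590, was the lowest of the 10 genes. Mlc1, a membrane protein gene, has starts 4005 bp and 4441 bp away on the opposite strand, with no motif copy and no promoter peak.

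Asz1 encodes an ankyrin repeat protein of the germ cell granules. Its copies began 66 bp (A5C) and 44 bp (A5T) before the start, at chr6:18109118-18109127 and chr6:18109096-18109105. The copy with A5T reads GCGCAAGCGC on the other strand, and 139 of 174 coding genes with this type near a start, or 79.9%, had a peak. The CpG ratio was 0.677, close to the median of all coding genes of 0.680. Mael, whose protein takes part in transposon silencing, had no copy with at most 1 mismatch, 2 copies with 2 mismatches and a CpG ratio of 0.818.

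Dazl and Ddx4 encode RNA-binding proteins of germ cells, the latter an RNA helicase widely used as a germ cell marker. Dazl had 1 copy, chr17:50293744-50293753, which began 133 bp before the start and differed by G9T. It was the only one of the 7 copies with 1 CpG, the other 6 having 2. On the other strand it reads GAGCATGCGC, and 116 of 157 coding genes with this type near a start, or 73.9%, had a peak, the lowest share of the copy types seen in the germline genes. The 401 bp around the Dazl start held 40 CpG at a ratio of 0.923. Ddx4 had the most CpG of the 10 genes, 53, at a ratio of 0.914, and no copy even with 2 mismatches.

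Tex101, which encodes a surface glycoprotein of germ cells, had the fewest CpG of the 10 genes, 21, at a ratio of 0.623. It had 2 copies with 2 mismatches and none closer to the palindrome. When copies with 2 mismatches were also counted, 8 of the 10 germline genes held a copy, all but Ddx4 and Sycp3. Copies with at most 2 mismatches were common, being present in 37.3% of coding genes, of which 33.9% had a peak.

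**Figure D3:**
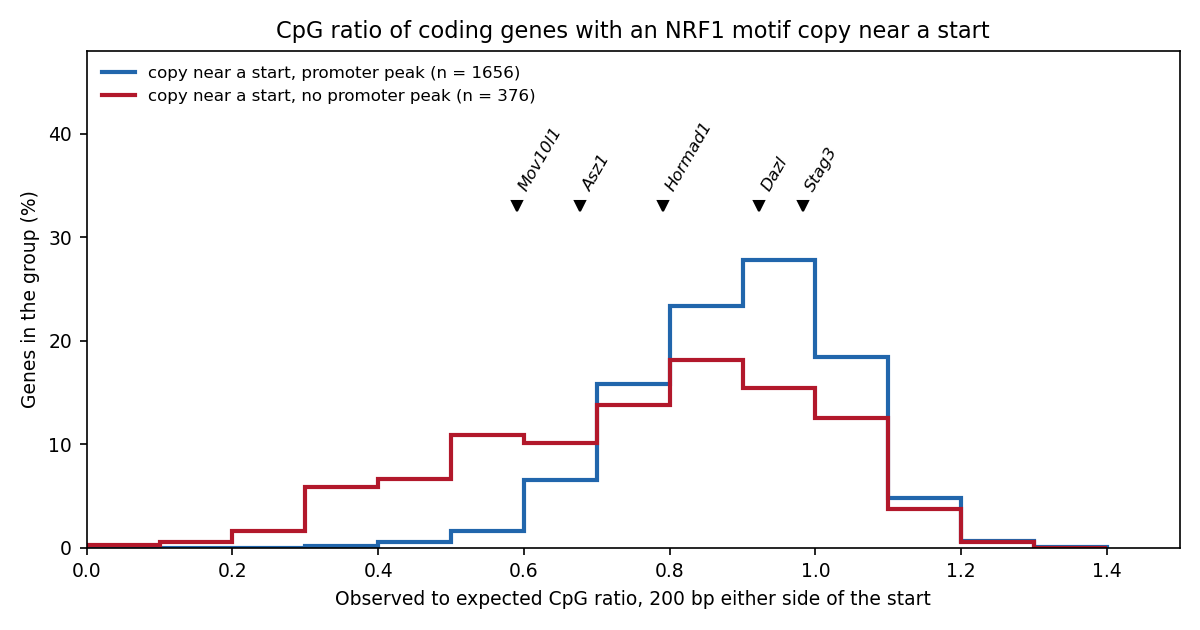
Observed to expected CpG ratio within 200 bp of the start for coding genes with a motif copy near a start, as the percent of genes in bins of 0.1, with (blue, n = 1656) and without (red, n = 376) a promoter peak. Triangles mark the 5 germline genes with a copy, which range from 0.590 (Mov10l1) to 0.983 (Stag3) and lie within the range of both groups.

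The CpG ratios of the germline promoters overlapped with those of promoters with NRF1. The median was 0.804 for the 10 germline genes, from 0.590 to 0.983, against 0.680 for all coding genes. It was 0.896 for the 2808 coding genes with a promoter peak, with quartiles of 0.795 and 0.991, and 0.792 for the 628 genes with a motif copy and no promoter peak. Dazl, Ddx4, Mael, Sycp1 and Stag3 lay between those quartiles, Hormad1 just under the lower one, and the 4 intermediate genes below it.

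The germline genes lay about as far from the nearest peak as other genes without a promoter peak. The nearest summit was at a median of 180366 bp from a start, from 24682 bp at Stag3 to 2165900 bp at Ddx4. For coding genes without a promoter peak the median was 186975 bp. The nearest peak of 8 of the 10 genes lay in the promoter of another gene, such as Pou2f1 for Mael (26.2-fold), Capza2 for Asz1 (25.8-fold) and Pim3 for Mov10l1 (27.0-fold). Around Ddx4 it was the promoter of Mocs2 (15.4-fold), and around Dazl that of Tbc1d5 (16.8-fold) at 885847 bp.

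Other sequence shared by the germline promoters was sought after their peaks and motifs were known. Both the E-box CACGTG, which MAX and MGA bind, and GCGGGAA, a sequence bound by E2F factors such as E2F6, were searched on both strands in the RefSeq promoters of 300 bp, which reach 250 bp upstream and 50 bp downstream of the start. These factors belong to a repressor complex known to act on germline genes. The E-box was present in 7 of the 10 germline genes (Ddx4, Hormad1, Mael, Mov10l1, Stag3, Sycp1 and Sycp3), against 9.16% of 16853 coding genes and 13.1% of CpG-rich ones. GCGGGAA was present in 4 (Ddx4, Hormad1, Stag3 and Sycp3), against 7.04% of coding genes and 12.2% of CpG-rich ones. Hormad1 and Stag3 thus held all of the 3 motifs. In Hormad1 the E-boxes began 57 bp and 20 bp before the first start, either side of the NRF1 palindrome, and the nearer overlapped a copy of the palindrome with 2 mismatches (T6C, C8T). The promoter table covered under 80% of the further germline genes and of the somatic counterparts described below, so a check of those lists is void and their counts are given only as a description. Of 47 further germline genes in the table, 14 (29.8%) held the E-box and 12 (25.5%) held GCGGGAA, and of 15 somatic counterparts none and 3 did. A match to such letters is a description of the promoter and not evidence of binding.

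A further list, chosen with earlier results of these data known, is described here and is not an independent check of the 10 genes. It held 62 further germline genes. A promoter peak was found at 6 of them, or 9.68%, beside 13.4% of coding genes. A motif copy was present in 23, or 37.1%, beside 12.1% of coding genes. Of these 23, 5 had a peak, beside 75.4% of all coding genes with a copy. The list held 23 CpG-rich, 29 intermediate and 10 CpG-poor genes. Among coding genes with a copy in these classes, 82.5%, 60.6% and 8.82% had a peak, so the 75.4% is not matched to the list in CpG content. By role, 13 of 19 piRNA pathway genes had a copy and 3 of these a peak, and 8 of 27 meiotic chromosome genes had a copy and 2 of these a peak. None of the 6 genes for germ cell RNA proteins had a copy or a peak. Beside 12.1% of coding genes with a copy and 13.4% with a peak, this lack in 6 genes is by itself near the background. The median CpG ratio of the list was 0.674.

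Exact copies were near a start in 4 of the 62 genes, and none of these had a peak. The genes were Gpat2, an acyltransferase of the piRNA pathway, Syce1, a central element protein of the synaptonemal complex, Spo11, the enzyme that makes meiotic DNA breaks, and Tex19.1, a germ cell protein that restrains transposons. They are shown here with 10 flanking bases on each side (GRCm38.p6, strand of the gene) beside Hormad1 and beside Brd2, a widely expressed bromodomain gene whose exact copy lay in a peak of 21.9-fold enrichment, 15 bp from its summit. The 4 genes were of the intermediate class, in which 79.7% of genes with an exact copy near a start had a peak, whereas Brd2 was CpG-rich with a ratio of 1.05, so it does not match them in CpG content. The copies are at chr2:127425143-127425152 for Gpat2, chr7:140787921-140787930 for Syce1, chr2:172979820-172979829 for Spo11, chr11:121145972-121145981 for Tex19.1 and chr17:34122615-34122624 for Brd2.
Hormad1, no peak: gacagttaagGCGCATGCGCactgcgcacg
Gpat2, no peak: agctgctgagGCGCATGCGCagagcccagt
Syce1, no peak: ctttacccttGCGCATGCGCagcagctagc
Spo11, no peak: gtggtgcagtGCGCATGCGCgtggctagag
Tex19.1, no peak: caagggagcaGCGCATGCGCgctgtagggg
Brd2, peak: gcacacccttGCGCATGCGCtatgtgtttc

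The same 10 letters were thus seen with and without a peak. Over all coding genes, 29 of the 305 genes with an exact copy near a start had no promoter peak, and 5 of the 29 were Hormad1 and the 4 genes above. In 2 of the 29, Nup62 and 1700123O20Rik, singled out after their values were seen, the copy itself lay in a peak whose summit fell outside the promoter. By CpG class the 29 were 15 CpG-rich, 13 intermediate and 1 CpG-poor. Those with the lowest CpG ratios, from 0.359 to 0.643, were Gm19345 (0.359), Cfap44 (0.467), Lypd10 (0.470), Gpat2, Tex19.1 (0.558), Ncan (0.562), Syce1 (0.581), Cfap47 (0.598), Arhgef25 (0.620) and Ly86 (0.643).

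The 6 germline genes with a peak differed among themselves. Tdrd7, a Tudor domain gene of germ cell granules, had a peak of 34.6-fold enrichment 63 bp before its start, and Zcwpw1, a histone mark reader of meiotic recombination, one of 33.7-fold 40 bp before its start. A further peak of Zcwpw1, of 16.0-fold, was nearer to a start of Mepce. Tdrd7 and Zcwpw1 each carried a copy with T6C and 3 CpG inside the stronger or only peak. Prdm9, the methyltransferase that places recombination hotspots, had a peak of 15.3-fold 234 bp before its start. The peak of Exd1 (8.92-fold), an exonuclease domain gene, had its summit 19 bp before the Exd1 start and 7 bp from its motif copy, and also lay in the promoter of Chp1. That of Ddx25 (17.1-fold) was 968 bp before its start and nearer to a start of Pus3. Mybl1, the transcription factor of piRNA genes, had a peak of 7.11-fold with no motif copy.

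Widely expressed paralogs of germline proteins were used as a list of the opposite kind, also chosen with earlier results of these data known. Of 22 such genes, 11 had a promoter peak, and 8 of the 9 with a motif copy had one. Beside them stand 27.0% of CpG-rich coding genes and 82.5% of CpG-rich genes with a copy, so the second count is near the background of its class. This list was also richer in CpG, with 20 CpG-rich genes and a median ratio of 0.969, so it does not match the germline genes in CpG content. For Stag3 the paralogs can be set side by side. Stag1, its counterpart in somatic cohesin, had 2 copies near its start and a peak of 19.9-fold enrichment 33 bp before it, with the copies inside the peak. Stag2, the other counterpart, had a single copy with A5C, the change seen in Stag3, and no peak.

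Several somatic counterparts of the further germline genes had a peak. Of these germline genes, however, Rec8, Rad21l, Msh4, Msh5, Brdt, Piwil1, Piwil2, Taf7l and Ctcfl had no motif copy besides having no peak. Rad21, the somatic counterpart of the meiotic cohesins Rec8 and Rad21l, had 3 copies in a peak of 26.9-fold. Msh3, a mismatch repair counterpart of meiotic Msh4 and Msh5, had a peak of 17.9-fold. Brd2 and Brd3, counterparts of the testis gene Brdt, had peaks of 21.9-fold and 8.67-fold. Among further germline genes of the paired families, Piwil4 (A5C, 59 bp before the start), Tdrd1, Tdrd5, Tdrd6, Tdrd9 and Tdrd12 each had 1 copy and no peak, whereas Tdrd7 had both. Tdrd1, Tdrd5, Tdrd6 and Tdrd7 were CpG-rich, Piwil4 and Tdrd9 intermediate and Tdrd12 CpG-poor. In the CpG-poor class, 8.82% of coding genes with a copy had a peak. The Tdrd6 copy was not near a start. The listed counterparts are the Argonaute genes for Piwil4 and Tdrd3 for the Tdrd genes. Of these, Ago1 had a copy with A5C in its peak, Ago2 and Tdrd3 had a peak without a copy, and Ago3 and Ago4 had neither. Ctcf (13.1-fold), Taf7 (11.5-fold), Ago1 (8.87-fold), Tdrd3 (8.26-fold) and Ago2 (4.10-fold) also had a peak. The Ago2 peak, with a −log10 q of 2.09, was lost at a q-value of at most 1e-05 and at a fold enrichment of at least 5. With either threshold, 10 somatic counterparts had a peak. Mov10 and Ddx3x, the counterparts of Mov10l1 and Ddx4, had neither a motif copy nor a promoter peak, so these pairs gave no contrast in promoter peaks. The nearest summit to a Ddx3x start was 888 bp away, outside the promoter as taken here, against 2165900 bp for Ddx4.

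**Figure D4:**
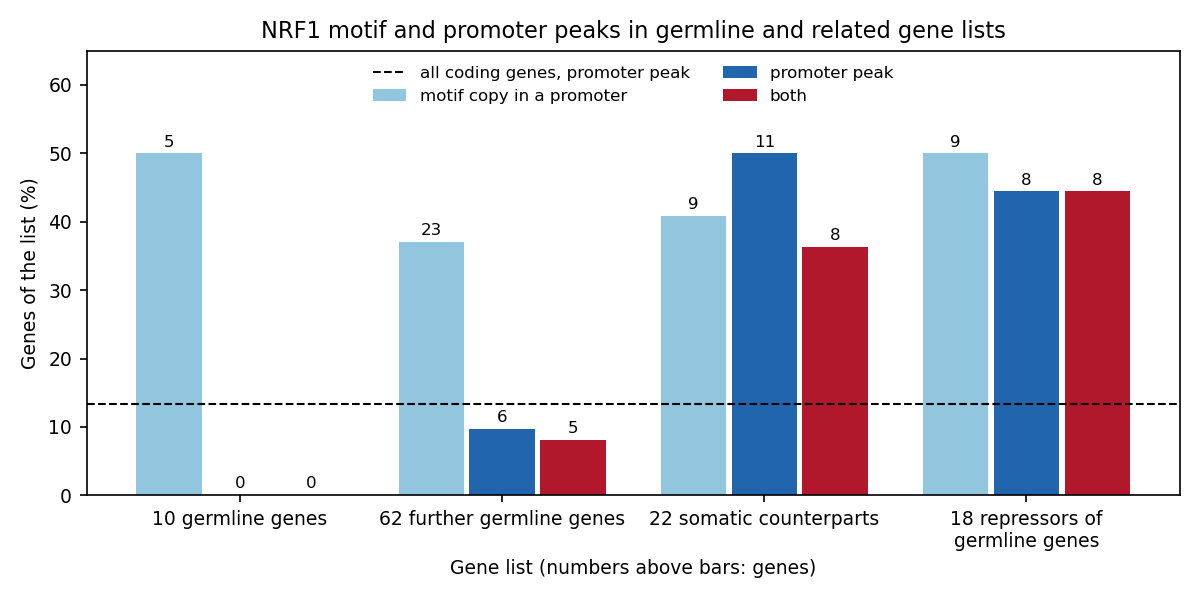
Percent of genes with an NRF1 motif copy in a promoter, with a promoter peak and with both, in the 10 germline genes, 62 further germline genes, 22 somatic counterparts and 18 repressors of germline genes. Numbers over bars are genes and the dashed line is the 13.4% of coding genes with a promoter peak. Both a copy and a peak were seen in 0 of 10, 5 of 62, 8 of 22 and 8 of 18 genes, in lists that differ in CpG content.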

How the data were processed

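The authors sequenced the ChIP-seq libraries as single-end reads, mapped them to mm10 with Bowtie, kept uniquely mapped reads and called peaks with MACS2 against input DNA. The blacklist their methods name belongs to a human build, and the methods mention the broad option whereas the deposited list has summits. The deposited list gives a score, a fold enrichment (ratio), and q-values as −log10, all as MACS2 wrote them. Read depth is not given by these values, and a deeper library would pass the threshold at weaker sites.

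Peaks were set against 45756 known RefSeq transcripts of GRCm38.p6 with Python 3.11.15 and numpy 2.4.6, which also searched the motif and counted CpG. For CpG, the start of a gene with the most CpG stood for it. Scripts were tested on simulated sequence. The comparisons are counts and medians beside all coding genes, and no test was run, since there is 1 list of peaks and no replicate. The members and lists were chosen with earlier results of these data known. Genes were named by rule, with the exceptions given next. The rule took the 10 members, genes of the other lists with a promoter peak or an exact copy near a start, and neighbours within 5000 bp. It also took the 10 genes of lowest CpG ratio with an exact copy near a start and no peak. Stag2, Mov10, Ddx3x and the genes nearest to a peak were named after their values were seen. All other named genes of the lists with neither a promoter peak nor an exact copy near a start were also named outside the rule, with their values known. Examples are Piwil4, Rec8, Ago3 and Uhrf1. Alternatives were other promoters, peak thresholds, numbers of mismatches, transcripts and CpG windows. The values of 1 gene of the somatic list are not reported here.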

Additional observations from a re-analysis of the deposited data

How the results depend on the processing

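Of 67 values under alternative settings for 16 results, 44 stayed within the counting error, 1 SD or 1.5 times the count and 23 moved. The count of germline genes with a promoter peak was 0 under all 6 alternatives, but most of these could not change it. Stricter thresholds only remove peaks, and with the nearest summit 24682 bp from a start no other promoter tried could reach a peak. Only the added predicted transcripts could have raised the count. The share of coding genes with a promoter peak became 14.7% with 2000 bp before to 500 bp after a start, 14.1% with 500 bp either side, 12.8% at a q-value of at most 1e-05, 12.8% at a fold enrichment of at least 5, 14.2% with any overlap and 13.9% with predicted transcripts. With 0 and 2 mismatches, a copy was present in 1 and 8 of the 10 germline genes, 4 and 38 of the 62 further ones, and 1.75% and 37.3% of coding genes, of which 89.4% and 33.9% had a peak. The share of coding genes with a copy was 15.1% in the wider promoter, 13.3% with 500 bp either side and 13.3% with predicted transcripts, and the share of these with a peak was 69.0% in the wider promoter and 72.1% with predicted transcripts. With a CpG ratio of at least 0.6 and a GC content of at least 50%, 10 germline genes were CpG-rich, and the motif-bearing genes with a peak were 80.3% of CpG-rich and 38.9% of intermediate ones. The median CpG ratio of the germline genes was 0.572 over the whole promoter, where that of coding genes was 0.468. Looser settings by construction admit more sites.

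No paired analysis was possible because there is 1 group and no test was run. Replicates could not be left out in turn either, as 1 list was made for the group. Depth limits every count of 0, since it sets how weak a site the peak caller can pass.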

Other observations

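Some of the factors known to silence germline genes in somatic cells had NRF1 peaks at their own promoters. Of a list of 18 such genes, 8, or 44.4%, had a promoter peak, beside 13.4% of coding genes and 27.0% of CpG-rich ones, and 16 of the 18 were CpG-rich. A motif copy was present in 9, of which 8 had a peak, near the 82.5% of CpG-rich coding genes with a copy. None of the 9 genes without a copy had a peak, near the 4.81% of coding genes without a copy that had one. Uhrf1 had a copy, which was not near a start, and no peak. Dnmt1, the maintenance DNA methyltransferase, had 2 promoter peaks, of 10.6-fold and 6.26-fold enrichment, each with an exact copy of the palindrome inside it, 23 bp and 35 bp from the summits. In the list, Ehmt1, a histone H3 lysine methyltransferase, had the highest fold enrichment, 31.0. The other 6 were among the 10 listed genes of PRC1.6, the repressor complex that holds MGA, MAX and E2F6, namely E2f6 (20.3-fold), Max (15.1-fold), Wdr5 (14.2-fold), Pcgf6 (12.0-fold), Mga (11.4-fold) and Tfdp1 (10.5-fold). The PRC1.6 genes L3mbtl2, Cbx3, Ring1 and Rnf2 had neither a copy nor a peak, nor did Dnmt3a, Dnmt3b, Setdb1, Ehmt2 and Zbtb33. What these peaks do to expression was not measured here.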
